A study of Homo sapiens with 9 samples.

Results

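The combined effect of the vitamin D receptor (VDR) and its ligand was measured in HepG2, a human line derived from a hepatocellular carcinoma, by setting 3 arrays of cells with extra VDR and calcitriol (VDR+VitD) against 3 arrays of cells with control virus and vehicle (CONT). These 6 arrays were chosen by their labelled treatment, out of 9 in the series. VDR+VitD cells carried Ad-VDR, an adenovirus with human VDR, and received 10 nM of VitD (calcitriol), whereas CONT cells carried Ad-C, the same kind of virus with no insert, and received the vehicle. The remaining 3 arrays (VDR) are of cells with Ad-VDR and vehicle, and serve here to split the difference into its steps. All cells stood for 48 h with virus and then for 4 h with VitD or vehicle, and 3 independent cultures each gave 1 array of every group. No cells with Ad-C and VitD are in the series, so what the ligand does through the receptor that HepG2 already makes was not measured, and every group carries an adenovirus.

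VDR is a nuclear receptor that binds calcitriol, pairs with a retinoid X receptor and sits on paired hexamer motifs in DNA to switch genes on. It is best known for calcium and phosphate handling in the intestine, kidney and bone, and its classical target, CYP24A1, encodes the enzyme that breaks calcitriol down. Hepatocytes normally hold little VDR, and in the liver the receptor has been studied chiefly in other cells and in relation to bile acids and lipids.

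Values are log2 signals from Clariom S arrays, on which 1 unit is a 2-fold step, and they ran from 2.47 to 18.24 with a median gene at 6.47. A gene was called when limma gave an adjusted p under 0.05 and the change was over 1.5-fold. Of 17687 genes, 851 (4.81%) were called in VDR+VitD cells against CONT cells, with 2.69% of all genes higher and 2.12% lower, and of the 3739 transcript clusters with no gene name 2.78% were called. The called rises reached further than the falls, with 60 genes over 4-fold higher and 16 over 4-fold lower, and with 20 over 8-fold higher and 3 over 8-fold lower. The direction was shared by 3 of 3 experiments for every called gene but CEP72. The groups of 3 arrays did not overlap for 849 called genes, against 21.7% of all genes. The defining hepatocyte markers measured here (ALB, AFP, TTR, TF, SERPINA1, APOA1, APOB and FGB) averaged between 15.8 and 15.9 on the VDR+VitD arrays and between 15.6 and 15.8 on the CONT arrays, and none was called, while HNF4A is not analysed here. Markers of other liver cells averaged between 6.47 and 6.61 on VDR+VitD arrays and between 6.50 and 6.59 on CONT arrays, and 1 of 15 was called, the bile duct keratin KRT19, at 11.97, 11.76 and 12.40 against 13.08, 13.04 and 13.01 in CONT cells. Without KRT19 and CD68 none of the 13 others read above 8.45 on a VDR+VitD array or 8.42 on a CONT array. CD68, a Kupffer cell marker, read above these levels in both groups, and its log2 difference of -0.45 was not called (adjusted p = 0.16).

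**Figure D1:**
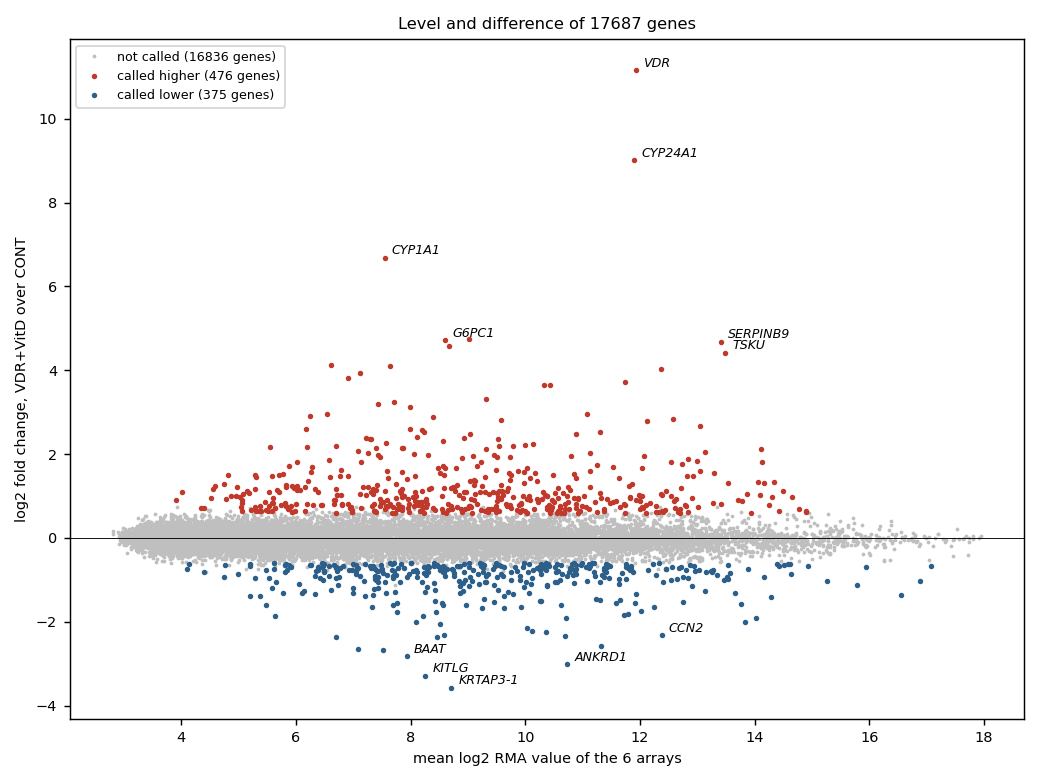
Each point is 1 of 17687 genes, with its mean log2 value over the 3 VDR+VitD and 3 CONT arrays on the horizontal axis and its log2 fold change on the vertical axis. Red points were called higher (476 genes) and blue points lower (375 genes), and the called rises reach 11.15 for VDR while the falls end at -3.57 for KRTAP3-1.

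The receptor itself was at log2 values of 17.47, 17.58 and 17.45 on the VDR+VitD arrays, against 6.79, 6.04 and 6.21 on the CONT arrays. The difference of 11.15 (SE 0.17, adjusted p = 6.5e-15) reads the delivered transgene together with the gene of the cells, and since the upper values lie near the top of the table its size may be understated. CYP24A1 stood at 16.44, 16.38 and 16.38 in VDR+VitD cells and at 6.64, 7.70 and 7.84 in CONT cells, a 514-fold rise (log2 9.01, SE 0.27, adjusted p = 2.5e-11). The VDR+VitD cultures lay close together, whereas the first CONT culture was lower than its companions. These were 2 calls among 15 measured genes of vitamin D metabolism and VDR action (13.3%, against 4.81% of all genes). Their median log2 fold change was 0.02 against -0.01 over all genes, and it turned to -0.02 when arrays were centred on GAPDH. The ligand-making enzyme CYP27B1 was at 3.82, 3.89 and 4.06 in VDR+VitD cells and at 3.79, 3.85 and 4.20 in CONT cells, near the bottom of the range, with a 95% interval of the difference from -0.34 to 0.30. The partner receptor RXRB was at 9.89, 9.80 and 9.97 against 10.18, 10.05 and 10.17 in CONT cells, and its log2 difference of -0.25 was not called (adjusted p = 0.38). RXRA, the main partner in liver, is not analysed here.

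Among 25 measured genes known as VDR targets from liver or other tissues, 4 rose and 2 fell (24% called, against 4.81% of all genes), with a median of 0.10. ANGPTL8, a liver hormone that restrains lipoprotein lipase, was at 14.37, 14.41 and 14.36 in VDR+VitD cells and 10.82, 9.92 and 10.34 in CONT cells (log2 4.02, SE 0.19, adjusted p = 5.3e-09). CD14, a co-receptor for bacterial lipopolysaccharide, was at 8.79, 9.20 and 9.10 against 6.09, 5.35 and 6.05 in CONT cells (log2 3.20, SE 0.23). NFKBIA, the inhibitor that holds NF-kappa-B in the cytoplasm, was at 14.10, 14.16 and 13.76 against 11.22, 11.10 and 11.16 (log2 2.85, SE 0.16). The groups did not overlap for any of these genes, which also held for 849 of all 851 called genes and for 21.7% of all genes. The 2 that fell were IGFBP3, a carrier of insulin-like growth factors (log2 -0.97), and the cell cycle inhibitor CDKN1A (log2 -0.80), both described elsewhere as VDR-induced. The other 19 of the 25 were not called. Among them were the antimicrobial peptide gene CAMP (-0.16) and the calcium channel gene TRPV6 (0.03), classical targets in other tissues. CYP3A4 (0.47) and SULT2A1 (0.29), which the study describes as VDR-induced in the enterohepatic system, were not called either, nor were CYP2B6 (0.22) and ABCC2 (0.16).

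Promoters of 4 genes that rose are shown because they carry a hexamer of the VDR type, and they were chosen after the values were seen. SERPINB9 encodes a granzyme B inhibitor, G6PC1 the last enzyme of glucose release, CYP1A1 a cytochrome P450 of aromatic compounds, and SLC20A1 a sodium-phosphate cotransporter. Each sequence is the 250 bases before the RefSeq start of the gene in GRCh38.p14, read 5′ to 3′ on the strand of the gene, and capitals mark the hexamer AGGTCA, its relative AGTTCA, the related hexamer GGGTCA or its own relative GGTTCA, on either strand.
SERPINB9 (chr6:2903310-2903559, minus strand): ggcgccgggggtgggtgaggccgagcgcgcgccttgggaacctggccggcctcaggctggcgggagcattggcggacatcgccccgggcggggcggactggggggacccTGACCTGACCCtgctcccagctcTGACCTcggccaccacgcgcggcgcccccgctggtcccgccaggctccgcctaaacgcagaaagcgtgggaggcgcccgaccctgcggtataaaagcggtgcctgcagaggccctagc
G6PC1 (chr17:42900549-42900798, plus strand): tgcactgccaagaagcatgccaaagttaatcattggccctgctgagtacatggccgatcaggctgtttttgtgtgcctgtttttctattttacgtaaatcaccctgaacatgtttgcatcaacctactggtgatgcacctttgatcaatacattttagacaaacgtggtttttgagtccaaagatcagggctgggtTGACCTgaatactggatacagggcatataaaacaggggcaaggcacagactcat
CYP1A1 (chr15:74725529-74725778, minus strand): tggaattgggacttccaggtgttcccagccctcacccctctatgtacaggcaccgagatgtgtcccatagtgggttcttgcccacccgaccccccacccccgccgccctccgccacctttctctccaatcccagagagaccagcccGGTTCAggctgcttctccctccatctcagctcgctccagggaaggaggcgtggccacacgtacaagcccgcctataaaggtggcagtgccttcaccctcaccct
SLC20A1 (chr2:112645689-112645938, plus strand): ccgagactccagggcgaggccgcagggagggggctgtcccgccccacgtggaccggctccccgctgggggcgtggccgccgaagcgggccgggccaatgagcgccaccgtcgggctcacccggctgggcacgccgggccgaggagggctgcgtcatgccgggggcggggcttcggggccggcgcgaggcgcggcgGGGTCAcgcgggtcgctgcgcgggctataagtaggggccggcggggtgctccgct
SERPINB9 holds 3 such hexamers on the opposite strand, of which an adjoining pair shares 1 base, and the other genes hold 1 each. The shares were counted in a longer window of 300 bases, which adds the 50 bases after the start to those shown. Over the 14250 of 17687 genes with such a RefSeq window, a hexamer of this kind was present in 37.8% of called rises, 25.9% of called falls and 34.5% of all promoters. A direct repeat of 2 hexamers with 3 bases between them, the pairing that VDR with a retinoid X receptor favours, was found in 2 of 378 called rises, 0 of 305 called falls and 14 of 14250 promoters (0.0982%). Those 2 were LINC01270, a noncoding RNA with a log2 fold change of 0.91, with GGGTCAgccAGTTCA on its antisense strand, and SYS1, a Golgi trafficking protein with 0.71, with GGTTCAggaGGTTCA. A match describes the letters in its window only, and binding was not measured.

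Beyond VDR and CYP24A1, the largest rises had varied roles. CYP1A1 was at 11.05, 11.11 and 10.49 in VDR+VitD cells and at 4.34, 4.07 and 4.21 in CONT cells, a 102-fold rise (log2 6.68, SE 0.20, adjusted p = 2.5e-11). CABLES2, a cyclin-dependent kinase binding protein, was at 11.39, 11.60 and 11.16 against 6.49, 6.70 and 6.74 in CONT cells (26.7-fold). CYP1A1 was dim in CONT cells, while CABLES2 was near the median gene there. TSKU, a secreted leucine-rich protein of the liver, was at 15.83, 15.73 and 15.51 against 11.14, 11.46 and 11.23 in CONT cells (21.3-fold). SLC6A12, a betaine and GABA transporter, was at 11.09, 11.06 and 10.73 against 6.43, 6.50 and 6.23 in CONT cells (23.8-fold). SERPINB9 was at 15.79, 15.84 and 15.61 against 11.09, 11.18 and 10.92 (25.7-fold, adjusted p = 2.5e-11), already bright in CONT cells. The zinc finger gene ZNF165 (17.5-fold), the Nogo receptor gene RTN4R (17.1-fold), NDRG4 (15.3-fold), CRYBG2 (14.1-fold), the heme pathway gene ALAS1 (13.2-fold) and the lysyl oxidase LOXL4 (12.6-fold) completed the 15 largest rises. All of these genes kept their call in every alternative run.

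The largest falls were smaller in size. KRTAP3-1, a member of the hair keratin-associated family, was at 6.61, 7.30 and 6.86 in VDR+VitD cells and at 10.34, 10.53 and 10.61 in CONT cells (11.9-fold lower, adjusted p = 9.6e-08). KITLG, which activates the receptor KIT, was at 6.36, 6.63 and 6.85 against 9.79, 10.10 and 9.80 in CONT cells (9.74-fold lower). ARID5B, a chromatin-binding protein, was at 9.92, 10.05 and 10.13 against 12.48, 12.69 and 12.69 in CONT cells (6.01-fold lower). None of these groups overlapped, as in 849 of all 851 called genes and 21.7% of all genes. PAX6 and TBX15, developmental transcription factors, fell 6.38-fold and 5.12-fold, and the iron exporter gene SLC40A1 fell 4.44-fold. EGLN3, an oxygen-sensing prolyl hydroxylase, fell 4.96-fold, and the angiotensin receptor gene AGTR1 fell 4.75-fold. Whether probes of KRTAP3-1 and the close paralogs among the UGT2B, CYP1A and CYP3A genes separate family members was not tested.

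**Figure D2:**
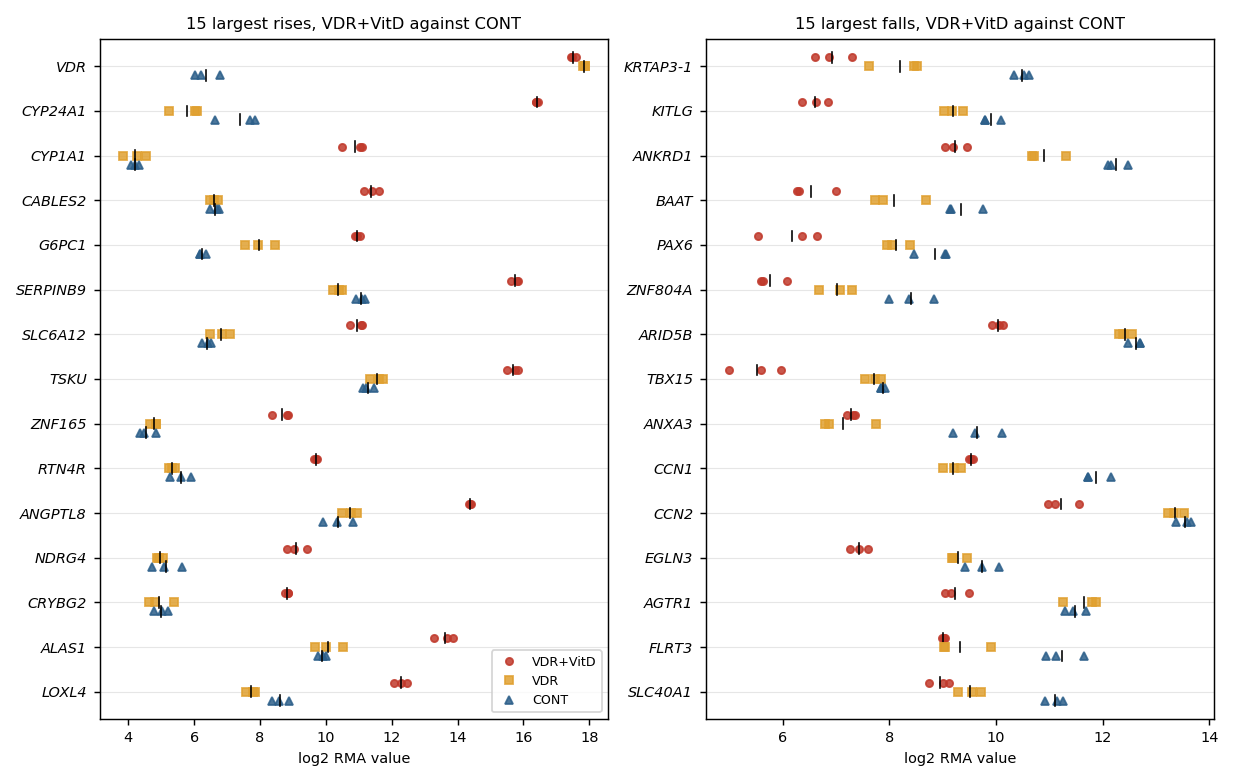
Log2 values of every array are shown for the 15 genes with the largest rise and the 15 with the largest fall, with VDR+VitD above VDR above CONT in each row and a black tick at the mean of 3. VDR+VitD and CONT arrays do not overlap in any of the 30 rows, and the VDR arrays of KRTAP3-1, ANKRD1 and ZNF804A lie between them.

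Glucose and bile acid genes were called in both directions. Of 20 measured glucose genes 3 rose and 3 fell (30% called, against 4.81% of all genes), with a median of 0.05. G6PC1, the phosphatase that lets hepatocytes release glucose, was at 11.04, 10.87 and 10.95 in VDR+VitD cells and at 6.36, 6.17 and 6.18 in CONT cells (26.3-fold, adjusted p = 6.8e-10). PPARGC1A, a coactivator of gluconeogenic and oxidative genes, was at 12.41, 12.62 and 12.43 against 11.29, 11.65 and 11.47 (log2 1.02). PCK1, the other rate-setting enzyme of gluconeogenesis, was at 7.80, 6.79 and 7.27 against 6.60, 6.52 and 6.74, and its difference of 0.67 was not called (95% interval 0.24 to 1.09, adjusted p = 0.071). The glucokinase regulator GCKR was called higher (log2 0.85), and the transporter SLC2A2 (-0.91), the insulin receptor substrate IRS1 (-0.87) and the glycolytic regulator PFKFB3 (-0.73) were called lower, but these calls were lost in fits without 1 array: SLC2A2 without CONT 1 (adjusted p = 0.051), GCKR without CONT 2 or VDR+VitD 3 (up to 0.070), PFKFB3 without VDR+VitD 1 or CONT 2 (up to 0.069), and IRS1 without arrays 1 or 2 of either group (0.091 to 0.12). Of 19 bile acid genes 3 rose and 1 fell (21.1% called), with a median of 0.12. The call of KLB, a co-receptor of FGF19, was lost without VDR+VitD 3 (adjusted p = 0.052). The basolateral exporter subunit SLC51B was at 10.29, 9.58 and 9.63 against 6.94, 7.02 and 6.88 in CONT cells (7.40-fold), and NR0B2, a repressor of bile acid synthesis, was at 14.93, 15.13 and 15.02 against 13.17, 13.33 and 13.15 (3.51-fold). The other subunit of that exporter, SLC51A, had a difference of 0.60 and was not called. BAAT, the enzyme that conjugates bile acids to glycine and taurine, was at 6.30, 6.27 and 7.00 in VDR+VitD cells against 9.15, 9.75 and 9.14 in CONT cells (7.08-fold lower, SE 0.26, adjusted p = 4.4e-06). CYP7A1, which sets the pace of bile acid synthesis, stood between 3.85 and 3.99 against 4.03 to 4.37 in CONT cells and was not called.

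Of 28 measured glycerolipid and phospholipid enzymes 7 rose and 3 fell (35.7% called, against 4.81% of all genes), and the median was -0.03. PCTP, a transfer protein for phosphatidylcholine, was at 12.20, 12.01 and 12.14 in VDR+VitD cells and 9.67, 9.59 and 9.64 in CONT cells (5.59-fold, adjusted p = 7.8e-08). MOGAT2, which makes diacylglycerol from monoacylglycerol, was at 10.77, 10.50 and 10.84 against 8.92, 8.73 and 8.66 in CONT cells (3.82-fold), and its relative MOGAT1 was at 4.89, 4.69 and 6.06 against 4.08, 4.10 and 3.74, near the bottom of the range, where a fold may be understated (2.36-fold). The third VDR+VitD culture read highest for MOGAT1, and the call was lost without CONT 3 (log2 1.12, adjusted p = 0.064). CDS1, of phosphatidylinositol synthesis, rose 2.69-fold, and LPGAT1, an acyltransferase, rose 1.89-fold. AGPAT2, which makes phosphatidic acid, was called at 2.06-fold higher, a call lost without VDR+VitD 3 (log2 0.74, adjusted p = 0.054) or CONT 3 (log2 0.96, adjusted p = 0.069). PLD1, a phospholipase that makes phosphatidic acid, fell 2.17-fold. Of the genes above, PCTP, CDS1, MOGAT1, AGPAT2 and LPGAT1 were picked by the study from these same libraries. The 35.7% therefore rests in part on that choice and is no independent evidence. The 9 measured genes that the study picked in this way were all called higher, so their count is no independent evidence either. They include SLC27A2, a very-long-chain acyl-CoA synthetase (11.28, 11.13 and 10.92 against 8.79, 9.00 and 8.88 in CONT cells, 4.66-fold), the glycerol channel AQP3 (3.60-fold) and the methionine enzyme MAT1A (4.09-fold).

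Fat synthesis, oxidation and lipoprotein genes that were called all rose, in 15.4%, 18.8% and 11.1% of the lists against 4.81% of all genes. These lists are short, hold 2 or 3 calls each and were chosen with earlier results of these data known. Whether the shares differ from that of all genes was not tested. Of 13 fatty acid synthesis genes 2 rose, the carbohydrate-sensing factor MLXIPL (2.27-fold) and the lipogenic factor SREBF1 (1.93-fold), and FASN was at 14.86, 14.91 and 15.05 against 14.75, 14.94 and 14.70, a difference of 0.14 that was not called. Of 16 oxidation genes 3 were called higher, among them SLC25A20, a carnitine carrier whose call was lost without CONT 1, CONT 3 or VDR+VitD 2 (adjusted p 0.063 to 0.10), and CPT1A, the carnitine transferase that admits fatty acids to mitochondria (7.41, 7.30 and 7.17 against 6.09, 6.43 and 6.26 in CONT cells, 2.05-fold). Of 18 lipoprotein genes 2 rose and the median was 0.28, with APOA5, a regulator of plasma triglyceride, at 9.62, 8.93 and 9.72 against 7.77, 7.44 and 7.93 (3.27-fold). No call was made among 15 cholesterol genes or 16 lipid droplet genes, lists so short that the 4.81% over all genes amounts to less than 1 call in each. Among the droplet genes PLIN2, the main droplet coat protein, had the lowest p at 15.71, 15.67 and 15.71 against 16.11, 16.06 and 16.05 (95% interval -0.63 to -0.13, adjusted p = 0.084).

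**Figure D3:**
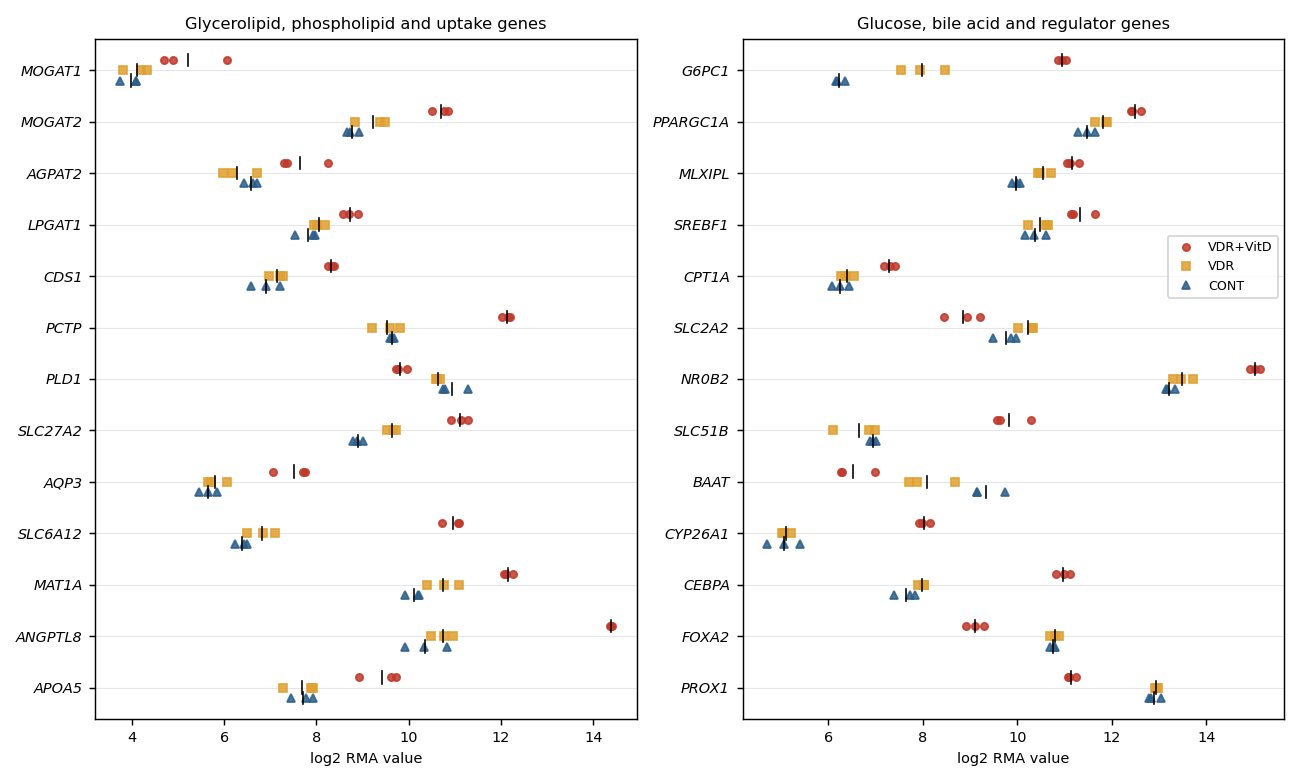
Log2 values of every array are shown for 13 lipid and uptake genes and 13 genes of glucose, bile acids and regulation, chosen after their values were seen, with VDR+VitD above VDR above CONT in each row and a black tick at the mean of 3. MOGAT1 and AGPAT2 show 1 VDR+VitD array apart from the other 2, while G6PC1, PCTP and ANGPTL8 hold their VDR+VitD arrays close together.

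Detoxifying genes followed no single direction. Of 16 cytochrome P450 and xenobiotic sensor genes 4 were called higher and 1 lower (31.2% called, against 4.81% of all genes). Among the higher ones CYP3A43 was called 1.57-fold higher, and the call was lost with GAPDH centring and without CONT 1, CONT 2, VDR+VitD 1 or VDR+VitD 3 (adjusted p 0.069 to 0.14). CYP3A5, a drug-metabolising enzyme, was at 9.22, 9.66 and 9.78 against 6.05, 6.87 and 6.34 in CONT cells (8.77-fold). CYP3A4, a target of VDR in the enterohepatic system, was at 3.91, 4.22 and 4.06 against 3.74, 3.58 and 3.46, a difference of 0.47 that was not called (adjusted p = 0.071) and lies near the bottom of the range. AHR, the receptor that drives CYP1A1 on exposure to dioxins, was itself lower at 13.94, 13.68 and 13.50 against 14.53, 14.83 and 14.52 (1.89-fold lower), and CYP1A2, a relative of CYP1A1, was at 5.85, 5.54 and 5.57 against 4.49, 5.23 and 5.05 (1.66-fold higher, a call lost without CONT 1 or VDR+VitD 1, adjusted p 0.080 and 0.10). CYP1B1 (-0.01), NQO1 (-0.05) and TIPARP (-0.35), members of the same list, were not called. CYP26A1, which breaks down retinoic acid, was at 7.92, 7.98 and 8.16 against 4.71, 5.07 and 5.40 in CONT cells (7.78-fold). It was the single call among 15 retinoid genes (6.67%). Of 16 conjugating enzymes 2 were called higher and 2 lower (25% called). The sulfotransferase SULT1C2 (2.12-fold) and the epoxide hydrolase EPHX1 (1.99-fold) were higher. The glucuronosyltransferases UGT2B11 (1.67-fold) and UGT2B7 (1.54-fold) were lower. The UGT2B7 call was lost without 5 of the 6 arrays taken singly (adjusted p 0.052 to 0.14). Of 13 stress genes 5 rose (38.5%). They were the thioredoxin reductase TXNRD1 (4.16-fold), the sulfiredoxin SRXN1 (3.92-fold), the chaperone DNAJB1 (3.87-fold), the heme oxygenase HMOX1 (2.08-fold) and GCLM of glutathione synthesis (1.74-fold). All but DNAJB1 serve redox or heme defence, and the GCLM call was lost without CONT 1 or VDR+VitD 2 (adjusted p 0.059 and 0.058), whereas the endoplasmic reticulum chaperone HSPA5 was at 15.80, 15.73 and 16.04 against 16.02, 16.06 and 15.98 and was not called.

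Of 14 measured hepatocyte factors 5 fell and 1 rose (42.9% called, against 4.81% of all genes), with a median of -0.14. FOXA2, a pioneer factor of liver genes, was at 8.92, 9.29 and 9.10 in VDR+VitD cells and 10.77, 10.70 and 10.79 in CONT cells (3.14-fold lower), and FOXA1 was at 10.59, 10.51 and 10.41 against 11.74, 12.01 and 12.13 (2.74-fold lower). PROX1, a homeobox factor of hepatocytes and lymphatic cells, was at 11.10, 11.25 and 11.07 against 12.79, 13.04 and 12.82 (3.35-fold lower, adjusted p = 4.1e-07). NR2F1 fell 2.13-fold, while the call of NR5A2 (lower) was lost without arrays 1 or 2 of either group (adjusted p 0.059 to 0.068). The call of ONECUT1 (higher) was lost without any 1 of the 6 arrays or VDR 1 (adjusted p 0.051 to 0.14). CEBPA, a factor of hepatocyte and fat cell maturation, was at 11.12, 10.82 and 10.99 against 7.74, 7.39 and 7.83 in CONT cells (10.0-fold), and CEBPB was at 12.15, 12.11 and 12.11 against 10.53, 10.36 and 10.26 (3.34-fold). PPARG and KLF5, which act in fat cell formation, fell 1.81-fold and 3.02-fold. CEBPA, CEBPB, PPARG and KLF5 were the 4 calls among 14 measured C/EBP and fat cell regulators (28.6%, against 4.81% of all genes). CEBPG (0.43), CEBPE (-0.08) and CEBPD (-0.25) were not called.

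Genes of TGF-beta, BMP and YAP signalling fell in 7 of 16 measured cases (43.8%) and rose in none, with a median of -0.59. Over all genes 2.12% were called lower, and the list was chosen with earlier results of these data known. CCN1 and CCN2, matricellular proteins, were at 9.56, 9.49 and 9.53 and at 11.11, 10.98 and 11.55 in VDR+VitD cells, against 11.72, 12.16 and 11.73 and 13.66, 13.58 and 13.37 in CONT cells (log2 -2.34 and -2.32). ANKRD1, a muscle ankyrin protein that YAP induces, fell 8.06-fold, THBS1 3.99-fold, and the BMP target ID2 2.96-fold. ID1 was also called lower (-0.75), but ID3 (-0.02), ID4 (-0.13), BAMBI (-0.42) and SMAD6 (-0.49) of the same list were not called. SMAD7, a feedback inhibitor of TGF-beta, was at 9.66, 9.55 and 9.79 against 9.49, 9.44 and 9.55 and was not called. Of 12 Wnt targets 4 fell (33.3%, against 2.12% of all genes) and none rose, with a median of -0.31. They were SP5 (3.42-fold), AXIN2 (3.14-fold), RNF43 (2.54-fold) and the secreted inhibitor DKK1 (2.16-fold). LGR5, another Wnt target, had -0.55 and was not called (adjusted p = 0.10). The rest of the list was not called either: ZNRF3 (-0.33), LEF1 (-0.30), NOTUM (-0.06), DKK4 (0.09), NKD1 (0.11), TBX3 (0.18) and GLUL (0.29). TAGLN, an actin-binding protein of smooth muscle, fell 2.75-fold and FHL2 2.38-fold among 13 actin and SRF genes (15.4% called). Of 22 growth factor genes 2 rose, PDGFA (3.49-fold) and IGFBP6 (2.83-fold), and 4 fell (27.3% called, against 4.81% of all genes).

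Immediate early genes, inflammation and cell cycle gave mixed calls. EGR1 was at 14.03, 13.70 and 13.11 against 11.82, 11.79 and 11.91 in CONT cells (3.42-fold), and FOSB rose 2.58-fold, whereas DUSP6, a phosphatase that shuts off ERK, was at 11.98, 12.13 and 11.84 against 13.47, 13.60 and 13.49 (2.90-fold lower). DUSP5 (2.14-fold) and SPRED2 (2.03-fold), which also curb this pathway, rose. Other feedback genes of the list were not called: DUSP1 (0.25), SPRY2 (0.19), SPRED1 (-0.01), DUSP4 (-0.43), SPRY4 (-0.51) and SPRY1 (-0.57). Of the 21 measured members 5 were called higher and 1 lower (28.6%, against 4.81% of all genes). FOS, JUN and JUNB were not called. The chemokine gene CXCL8 was at 6.79, 7.33 and 7.15 against 8.37, 9.30 and 9.58 (3.98-fold lower, SE 0.37), the least precise of the differences named here. Of 26 measured inflammation genes it was the only 1 called lower, and 2 were called higher (11.5% called). CXCL1, CXCL2, CXCL3, CXCL5, CXCL10, CCL2 and CCL20 were not called. Of 22 interferon response genes 13.6% were called, and IFI6 (2.94-fold) and OAS1 (2.36-fold) fell. IFIH1, a sensor of double-stranded RNA, was called 1.73-fold higher. Its call was lost without CONT 1, CONT 2, VDR+VitD 1 or VDR+VitD 3 (adjusted p 0.058 to 0.065). Of 30 cell cycle genes 4 were called higher and 1 lower (16.7% called). The call of CABLES1, a relative of CABLES2 (1.57-fold higher), was lost without CONT 1, CONT 3, VDR+VitD 1 or VDR+VitD 3 (adjusted p 0.051 to 0.091). The cyclin CCND1 was called 1.51-fold higher, at the edge of the threshold, and its log2 fold change was 0.55 without CONT 1 and 0.57 without VDR+VitD 2, both under the fold limit.

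In the remaining lists, SLC20A1 was the single call among 19 calcium, phosphate and metal transporters (5.26%, near the 4.81% of all genes). It was at 14.46, 14.43 and 14.28 in VDR+VitD cells and 11.78, 11.84 and 11.53 in CONT cells (6.38-fold higher, adjusted p = 2.0e-08). Of 16 methionine, betaine and osmolyte genes 3 were called higher (18.8%), SLC6A12, MAT1A and the betaine methyltransferase BHMT. SLC6A12 and MAT1A are among the genes that the study picked from these same libraries. The BHMT call (log2 0.72) was lost without any 1 of CONT 1, 2 or 3, VDR+VitD 1 or 3, or VDR 3 (adjusted p 0.052 to 0.17). Of 22 plasma protein genes SERPINC1, which encodes antithrombin, rose 1.98-fold and HAMP, which encodes the iron hormone hepcidin, fell 1.96-fold (9.09% called). Of 17 hypoxia and lysyl oxidase genes LOXL4 rose and EGLN3, ADM (1.73-fold) and SLC2A1 (1.55-fold) fell (23.5% called). The study's reference gene GAPDH was at 17.79, 17.87 and 17.82 against 17.85, 17.77 and 17.75 in CONT cells, with a 95% interval of the difference from -0.23 to 0.30.

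**Figure D4:**
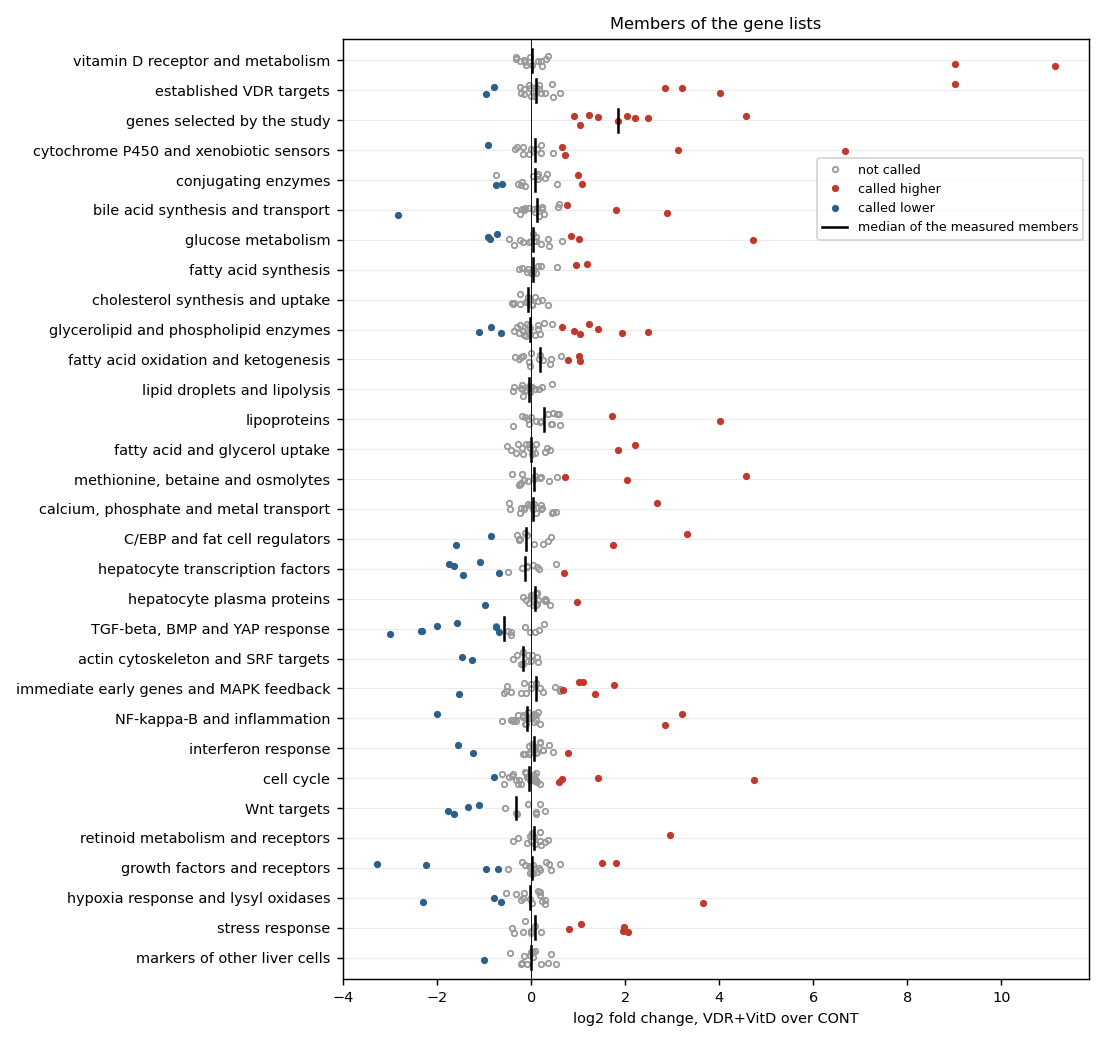
Each circle is 1 measured member of a gene list, placed by its log2 fold change of VDR+VitD over CONT, filled red if called higher and blue if called lower, with a black bar at the median of the list. The TGF-beta, BMP and YAP list has its median at -0.59 and the Wnt list at -0.31, while the lists of cholesterol and of lipid droplets have no filled circle.

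The VDR arrays split the combined difference into the receptor step (VDR against CONT) and the ligand step (VDR+VitD against VDR), which share arrays with it and with each other, so their values are given side by side only. The receptor step called 0.407% of genes (72, or 140 with the experiment as a block, and 27, 35 and 37 without CONT 2, VDR 3 or VDR 1) and the ligand step 4.16%. CYP1A1 had 0.01 (SE 0.20) in the receptor step and 6.67 (SE 0.20) in the ligand step. G6PC1 had 1.74 (adjusted p = 0.00035) and 2.97 (adjusted p = 1.1e-07), and SLC27A2 (0.74 and 1.48) and AGXT, the peroxisomal glyoxylate enzyme (0.95 and 0.93), were also called in both steps. CYP24A1 was lower in VDR cells, at 5.25, 6.08 and 6.04, than in CONT cells (receptor step -1.60, adjusted p = 0.017) and then rose by 10.61 with the ligand. SERPINB9 (-0.70 and 5.39) and LOXL4 (-0.87 and 4.53) had the same shape, so for these genes the combined figure is smaller than the ligand step alone. The falls called in both steps were KRTAP3-1 (-2.30 and -1.27), ANKRD1 (-1.34 and -1.67), ZNF804A (-1.39 and -1.25) and SH3RF1 (-0.89 and -0.78). Some falls were already there in VDR cells: CCN1 was at 9.21, 9.35 and 9.00 with receptor alone (-2.68, and 0.34 in the ligand step), and ANXA3 (-2.50 and 0.15), FLRT3 (-1.91 and -0.31) and TAGLN (-1.83 and 0.37) were similar. CCN2, by contrast, had -0.17 and -2.15. KLF5 (-0.90 and -0.70) was called in neither step, with adjusted p of 0.088 and 0.076, but was called in the combined comparison.

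**Figure D5:**
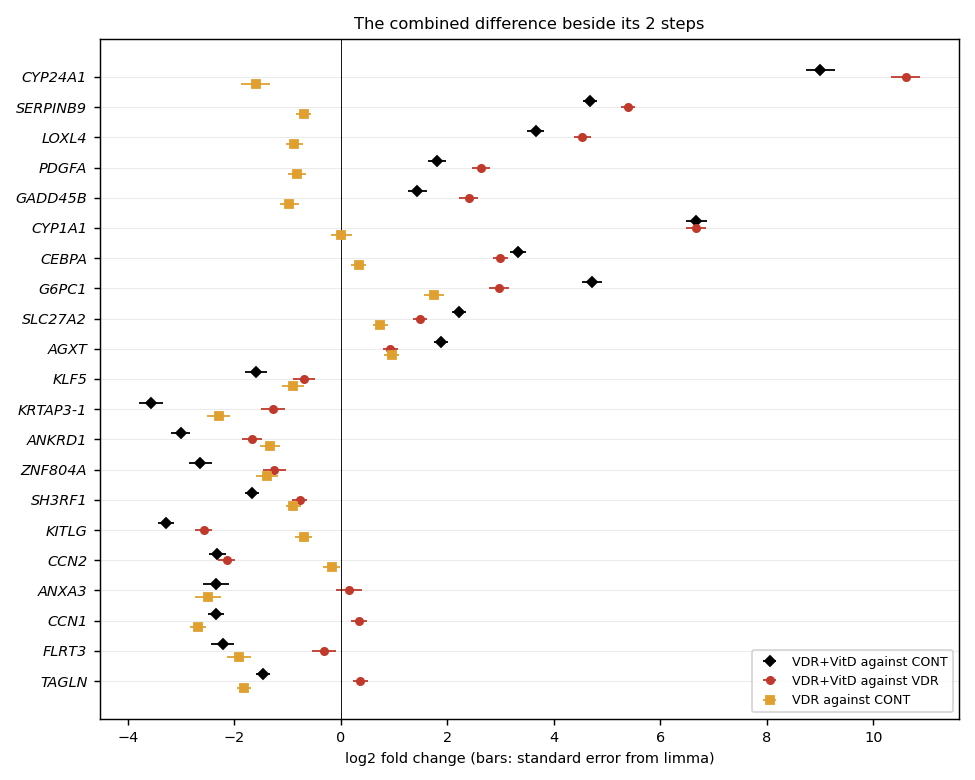
Log2 fold changes with limma standard errors are shown for 21 genes, chosen after their values were seen, with the combined difference as a black diamond, the ligand step as a red circle and the receptor step as an orange square. CYP24A1, SERPINB9 and LOXL4 lie below 0 in the receptor step and above 0 in the ligand step. CCN1, ANXA3 and TAGLN lie below 0 in the receptor step and in the combined difference, but not in the ligand step.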

How the data were processed

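Each of the 3 groups (VDR+VitD, VDR and CONT) had 3 Clariom S arrays. The authors deposited log2 values for 21448 transcript clusters by RMA, which corrects background, quantile-normalizes and summarises, in Transcriptome Analysis Console 4.0.2 per the submitters' processing notes. For the array annotation a genome build was not given in the sources used here. Quantile normalization gave arrays medians between 6.16 and 6.20, so a shift shared by most genes would not show. The number of arrays limits precision.

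Gene symbols were read from the platform annotation: 17709 clusters had 1 symbol, 3739 had none, and clusters of 20 genes were averaged, leaving 17687 genes. Differences were fitted with limma 3.58.1 (lmFit and eBayes) in R 4.3.3 on all 9 arrays with group as the only factor, with Benjamini-Hochberg adjustment over all genes. The steps were tested on simulated data. Same-numbered arrays come from the same experiment per the labels, and deviations of VDR+VitD and CONT arrays correlated at 0.042 to 0.11 within an experiment and -0.059 to 0.010 between experiments. As deviations cancel within each group, the gap between these ranges is partly built in. The experiment as a block was an alternative, as were 6 arrays only, filters, a variance trend, a test against 1.5-fold, centring and leaving out each array.

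The comparison, lists and alternatives were chosen with earlier results of these data known. Named genes are the 15 largest rises and 15 largest falls moving the same way in 3 of 3 experiments, all of the vitamin D and study-selected lists, up to 6 called members of each other list, a few well-known members that were not called, and genes called in both steps or in opposed steps. Promoters came from RefSeq (GRCh38.p14), and VDR, CYP24A1, SLC6A12 and ZNF165 were not matched.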

Additional observations from a re-analysis of the deposited data

Results flagged for a closer look

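Among the 3739 transcript clusters that carry no gene name in the annotation used, 104 were called between VDR+VitD and CONT cells (61 higher and 43 lower, 2.78% of them), which lies outside the comparison of named genes. The largest rise, cluster TC0900009114.hg.1, was at 12.90, 12.87 and 12.87 on VDR+VitD arrays, 14.01, 14.07 and 13.86 on VDR arrays and 9.26, 8.94 and 8.93 on CONT arrays. Cluster TC0200011138.hg.1 was at 11.08, 11.35 and 11.04 on VDR+VitD arrays, 7.00, 7.22 and 6.89 on VDR arrays and 8.27, 8.23 and 8.27 on CONT arrays.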

How the results depend on the processing

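With the experiment as a replicate block, 916 genes were called between VDR+VitD and CONT cells against 851 without it, 847 of them shared, and no named gene lost its call. A test against a fold-change of 1.5 itself called 207 genes (140 higher, 67 lower) in this comparison, 188 in VDR+VitD against VDR and 11 in VDR against CONT. VDR against CONT moved from 72 calls to 140 with the block, 141 among the 8000 genes of largest interquartile range and 142 with an intensity trend. Leaving out 1 array gave 732 to 860 calls (418 to 480 higher, 308 to 380 lower), 622 to 725 in VDR+VitD against VDR and 27 to 69 in VDR against CONT, where the lowest counts came without CONT replicate 2 (27), VDR replicate 3 (35) and VDR replicate 1 (37). Of 851 called genes, 538 were called in every fit that left out 1 array. Of 115 named genes called, 70 kept the call in every setting, 26 lost it only in the test against 1.5-fold, and none reversed. The planned centring on several reference genes was not run, and centring on GAPDH alone, chosen after seeing the data, gave 422 higher and 411 lower and turned the sign of the small medians of the vitamin D, calcium and growth factor lists. The causes were not tested.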

Other observations

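Genes outside the lists, chosen after their values were seen, included several enzymes of nitrogen and amino acid handling. NAGS, which makes the activator of the urea cycle, was at 12.21, 11.98 and 12.25 in VDR+VitD cells and 8.63, 8.69 and 8.15 in CONT cells (log2 3.66, SE 0.16, adjusted p = 2.4e-09 from limma). CA5A, a mitochondrial carbonic anhydrase, rose 5.22-fold, the histidine-degrading HAL 5.13-fold, and PRODH2, of hydroxyproline breakdown, 4.47-fold. HAL was the least even of these, with CONT arrays at 6.67, 5.52 and 6.16.

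Other genes chosen in the same way included some for secreted factors and receptors, while 16 of the 22 measured members of the growth factor list were not called. CSF1, the macrophage growth factor, was at 13.60, 13.75 and 13.18 against 10.65, 11.00 and 10.52 in CONT cells (6.90-fold higher), and EPO, the hormone of red cell formation, at 9.36, 8.81 and 9.70 against 6.47, 6.72 and 6.87 (6.08-fold higher). LEFTY1 and LEFTY2, Nodal antagonists of near-identical sequence, rose 5.98-fold and 4.43-fold. Endothelin gene EDN1 fell 4.13-fold, Notch ligand gene JAG1 3.57-fold, the glucocorticoid receptor gene NR3C1 2.84-fold and the TGF-beta receptor gene TGFBR2 2.67-fold.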
